A study of Mus musculus with 2 samples.

Results

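The genes described here build the centromere, the kinetochore and the spindle checkpoint. They are every gene present in both files whose symbol is Cenp followed by 1 letter (with Cenpc1), together with a named set of outer kinetochore, checkpoint and centromere-loading genes. The rule goes by name and holds no measured value, but it was drawn up with earlier results of these data known. It gave 40 genes of 16543 in both files, after Knl1 (listed as Casc5 in the P24-30 file) and Cenpu (listed there as Mlf1ip) had been joined through their older symbols.

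Single cells of medulloblastoma, a tumour of the cerebellum, were profiled from mice of the genotype hGFAPcre;Ptch c/c, in which Cre driven by a human GFAP promoter acts on a conditional allele of Ptch, the receptor that restrains Sonic hedgehog signalling. The tumours were taken at postnatal days 24 to 30 (P24-30) in one library and at postnatal day 12 (P12) in the other, so both ages carry the same genotype and neither has a normal control. The GFAP promoter is active in neural progenitors and glia, and the sources used here do not give the number of animals behind each library. Drop-seq captures cells in droplets and counts the 3' ends of messenger RNA by molecular barcodes (UMIs).

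After cells with under 500 UMIs or over 20% mitochondrial UMIs had been removed, 4796 cells of the P24-30 library (median 2193.5 UMIs) and 5723 of the P12 library (median 1805 UMIs) remained. Granule lineage markers, a list that also holds Gli1, Gli2, Ptch1, Mycn and Ccnd1, summed to 2979 CPM at P24-30 and 3478 CPM at P12. CPM is a gene's UMIs as counts per 1000000 UMIs of the cells they were summed over. All 11 of these markers were detected in both libraries, but their levels were not alike. Ptch1 differed most, at 12.2 CPM at P24-30 and 156.0 CPM at P12, while some, such as Zic1 (707.4 and 590.8 CPM), were higher at P24-30. Cells with 3 or more markers of a glial, immune, vascular or choroid plexus type made up 3.02% of the P24-30 cells and 3.09% of the P12 cells. Cells with 3 or more erythroid markers were counted apart, 7 at P24-30 and 2 at P12. With 1 library per age there is no replicate check and no test on any value. All intervals are 95% and cover counting error only, and age cannot be told apart from the library or from the way each file was counted.

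The 40 genes lie on many chromosomes. In mm10 (GENCODE annotation) Cenpa spans chr5:30666777-30674830, Knl1 chr2:119047119-119105501 and Cenpe chr3:135212537-135273611, all on the plus strand and free of overlapping genes. On the minus strand, Cenpb spans chr2:131175182-131180067 and overlaps Spef1, Cenph spans chr13:100759674-100775899 and overlaps Gm16335, and Cenpf spans chr1:189640606-189688086 and overlaps Gm37239. No source used here says whether the counting used strand, so reads of overlapping genes may be mixed, as for Cenpo, which overlaps Adcy3 and Ptrhd1.

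The centromere is marked by nucleosomes that hold the histone H3 variant Cenpa. On them sits the constitutive inner kinetochore throughout the cell cycle, and in mitosis the outer kinetochore assembles on that base and binds the spindle's microtubules. Unattached kinetochores recruit the checkpoint proteins, which hold back anaphase, and the granule cell precursors from which these tumours arise divide rapidly in the young cerebellum.

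Promoters of cell-cycle genes are known for the CHR, a short element bound by factors that time expression to late in the cycle. They are also known for the CCAAT box, a short element common in promoters of many kinds, and for E2F sites, which act earlier. The following 6 promoters were chosen by folds between the cell-cycle ranges described below. Spc25, Sgol1 and Ska3 were 3 of the 4 genes with the highest levels in M relative to low-cycling cells at P12. Cenph, Cenpu and Cenpo had the highest levels in G1/S relative to M at P12, at 1.44, 1.39 and 1.17 times the M level, and for Cenpo the interval held 1 (0.670 to 2.05). High in M over the low range does not mean highest in M, since Spc25 was highest in G2 at P12. Each sequence is 300 bases long, from 250 before to 50 after the gene's start, read 5' to 3' on the gene's strand (RefSeq, GRCm38.p6), and capitals mark the CHR (TTTGAA, or TTCAAA on the other strand) and the CCAAT box (CCAAT, or ATTGG on the other strand).
Spc25, minus strand, chr2:69206164-69206463: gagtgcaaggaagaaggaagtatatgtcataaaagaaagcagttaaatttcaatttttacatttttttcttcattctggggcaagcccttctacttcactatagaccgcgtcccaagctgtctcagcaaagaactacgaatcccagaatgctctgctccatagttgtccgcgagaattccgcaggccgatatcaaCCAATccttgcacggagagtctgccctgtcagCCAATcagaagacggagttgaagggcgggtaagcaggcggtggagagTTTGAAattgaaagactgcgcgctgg
Sgol1, minus strand, chr17:53689266-53689565: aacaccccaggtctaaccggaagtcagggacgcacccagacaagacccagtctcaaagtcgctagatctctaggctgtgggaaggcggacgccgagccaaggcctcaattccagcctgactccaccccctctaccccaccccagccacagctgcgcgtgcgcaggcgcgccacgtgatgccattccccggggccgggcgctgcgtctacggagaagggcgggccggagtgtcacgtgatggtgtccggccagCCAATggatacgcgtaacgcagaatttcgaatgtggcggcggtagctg
Ska3, minus strand, chr14:57826114-57826413: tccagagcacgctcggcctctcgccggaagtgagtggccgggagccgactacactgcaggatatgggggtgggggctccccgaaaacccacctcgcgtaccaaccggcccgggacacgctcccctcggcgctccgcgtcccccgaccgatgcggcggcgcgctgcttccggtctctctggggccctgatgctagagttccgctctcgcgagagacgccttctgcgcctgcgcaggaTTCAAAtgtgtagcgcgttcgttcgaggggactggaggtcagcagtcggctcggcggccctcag
Cenph, minus strand, chr13:100775850-100776149: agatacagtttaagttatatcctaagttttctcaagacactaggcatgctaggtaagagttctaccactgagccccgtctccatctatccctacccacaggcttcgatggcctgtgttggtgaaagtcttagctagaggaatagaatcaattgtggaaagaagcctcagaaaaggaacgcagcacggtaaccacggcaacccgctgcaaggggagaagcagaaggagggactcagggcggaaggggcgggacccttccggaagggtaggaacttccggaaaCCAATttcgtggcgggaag
Cenpu, plus strand, chr8:46551819-46552118: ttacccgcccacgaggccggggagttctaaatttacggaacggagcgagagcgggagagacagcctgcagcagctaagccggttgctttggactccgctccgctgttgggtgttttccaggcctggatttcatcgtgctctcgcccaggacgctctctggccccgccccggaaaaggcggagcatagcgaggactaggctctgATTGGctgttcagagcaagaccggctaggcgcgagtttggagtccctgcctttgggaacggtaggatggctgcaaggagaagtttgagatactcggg
Cenpo, minus strand, chr12:4233916-4234215: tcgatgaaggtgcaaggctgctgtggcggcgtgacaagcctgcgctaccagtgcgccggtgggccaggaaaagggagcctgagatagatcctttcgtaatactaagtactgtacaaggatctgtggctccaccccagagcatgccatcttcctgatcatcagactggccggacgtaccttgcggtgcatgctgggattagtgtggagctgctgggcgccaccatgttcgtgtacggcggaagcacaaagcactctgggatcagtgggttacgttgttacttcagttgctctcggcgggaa

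In these windows Spc25 held a CHR and 2 CCAAT boxes, Ska3 a CHR, Sgol1, Cenph and Cenpu a CCAAT box each, and Cenpo neither. Of the 40 genes, 37 matched an entry of the table. The CHR was found on either strand in 14 of the 37 promoters (37.8%), against 18.1% of all 27025 promoters of the table. A CCAAT box was found in 24 of 37 (64.9%), against 37.9% of all promoters. The E2F letters TTTGGCGC or TTTCGCGC were found in 1 of 37, that of Cenpl, against 0.833% of all promoters. The letters searched do not contain each other, and a match describes the letters only.

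To describe the genes over the cell cycle, each cell was scored on 4 phase lists that hold none of the 40 genes. A cell went into the phase of its highest score where that score was over 0.5 SD above its library's mean, and otherwise into a low range. At P24-30 the low, G1/S, S, G2 and M ranges held 2090, 1001, 750, 322 and 633 cells, and at P12 they held 2029, 1327, 924, 494 and 949 cells. These are ranges of a score and not cell types. At P12, 122 of the low-range cells had a best score within 0.1 SD of the threshold, and at P24-30 this held for 121.

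The summed level of the 40 genes was higher with each phase in both libraries. At P24-30 it was 1142 CPM in the low range, 2493 in G1/S, 4966 in S, 6781 in G2 and 8543 in M. At P12 it was 1924 CPM in the low range, 4039 in G1/S, 8818 in S, 11395 in G2 and 15095 in M. No counting intervals of neighbouring ranges met. The step between G2 and M was not shared by most of the genes. The median M over G2 fold of the 40 was 1.05 at P24-30 and 1.02 at P12, and the interval lay above 1 for 10 genes at P24-30 (6.94% of all genes) and 12 at P12 (6.9%). It held 1 for 27 genes at P24-30 and 22 at P12. Cenpa had the highest M over G2 fold, 2.13 at P24-30 and 2.24 at P12, and Cenpf the next, 1.70 at P24-30 and 1.94 at P12. In the M range 36 of the 40 genes were at least 2-fold above the low range at P24-30, where 5.32% of all 9119 genes with at least 100 UMIs were, and the median of the 40 was 8.35-fold against 0.902-fold over all those genes. At P12 the count was again 36 of 40, where 5.13% of 9033 genes were, with a median of 7.34-fold against 0.910-fold. The size of these folds depends on where the low range ends. With the threshold at 1 SD, 32 of 40 genes were at least 2-fold higher in M at P12, and the P12 fold of Sgol1 was 8.52 instead of 23.8.

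**Figure D1:**
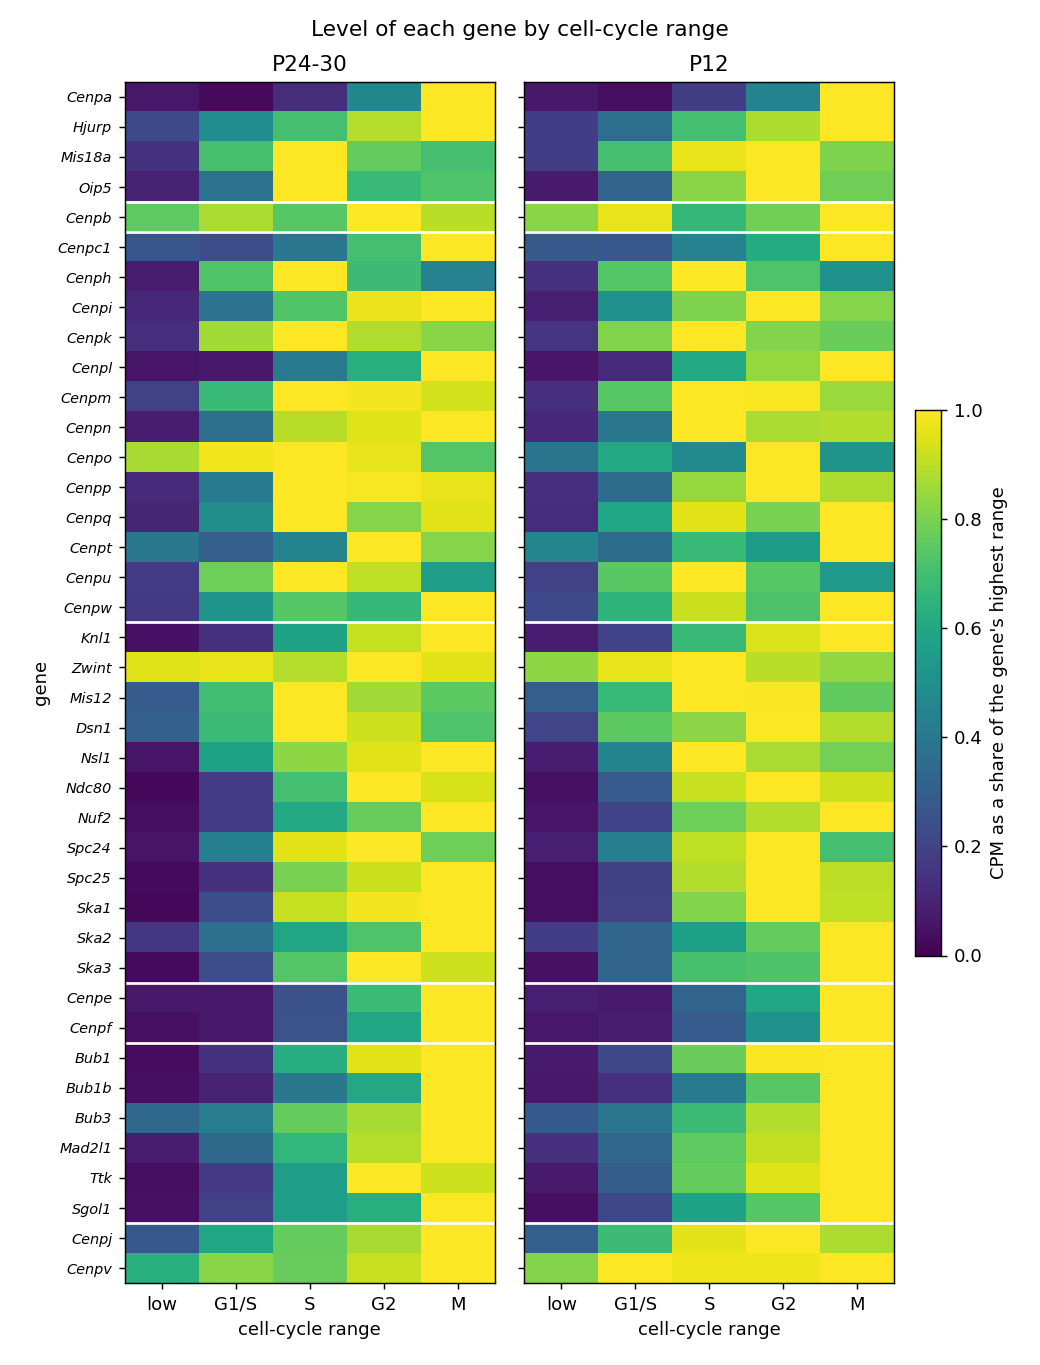
Level of each of the 40 genes (rows, grouped by role between white lines) in the 5 cell-cycle ranges of the P24-30 and the P12 library, as a share of the gene's highest range in that library. Most rows are dark in the low range and bright in G2 or M, while Cenpb, Zwint and Cenpv are bright throughout, and Cenph and Cenpu are brightest in S.

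The genes that make and load the centromere histone did not share a phase. Cenpa was at 49.4 CPM in the low range, 19.9 in G1/S, 103.7 in S, 370 in G2 and 789 in M at P24-30. At P12 its levels in the same order were 76.3, 39.9, 203.8, 496 and 1112 CPM. It was lowest in G1/S and stood in M at 7.61 times its S level at P24-30 (6.64 to 8.75) and 5.46 times at P12 (4.94 to 6.04), the highest M over S fold of the 40 genes in both libraries. Hjurp, the chaperone that deposits Cenpa, was higher in M than in S by a smaller factor, 1.42 in both libraries. Mis18a and Oip5, subunits of the complex that licenses this deposition, were highest in S at P24-30 and in G2 at P12. Their M over S folds were 0.705 for Mis18a and 0.723 for Oip5 at P24-30, and 0.837 for Mis18a and 0.952 for Oip5 at P12, and the counting interval excluded 1 for Mis18a at P24-30 alone.

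Cenpb, which binds a sequence of the centromeric satellite repeats, differed less between the ranges than most of the 40 genes. It had 127.1 CPM in the low range, 147.7 in G1/S, 125.2 in S, 169.4 in G2 and 151.8 in M at P24-30. At P12 the levels were 84.9, 99.8, 68.8, 81.5 and 103.3 CPM. Its M level was 1.19 times the low level at P24-30 and 1.22 times at P12, and 1.21 times the S level at P24-30 (1.03 to 1.43) and 1.5 times at P12 (1.22 to 1.85).

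Within the inner kinetochore, subunits that work in one complex differed in their phase. Cenph, Cenpk and Cenpu were higher in S than in M in both libraries. Cenph had 17.99 CPM in the low range, 166.4 in G1/S, 228.0 in S, 156.6 in G2 and 100.7 in M at P24-30, and 61.1, 314.6, 426.1, 308.6 and 218.5 CPM at P12. Its M over S fold was 0.442 (0.373 to 0.521) at P24-30 and 0.513 (0.460 to 0.571) at P12, the lowest of the 40 genes in both. Cenpu followed with 0.562 at P24-30 and 0.535 at P12, and Cenpk with 0.823 and 0.772. Both Cenph and Cenpk act in the complex that also holds Cenpi and Cenpm, whose M over S intervals held 1 except for Cenpm at P12 (0.850). Cenpo, Cenpp, Cenpq and Cenpu form another complex, in which Cenpp and Cenpq had M and S levels that counting error did not separate.

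Cenpc1, Cenpl and Cenpt went the other way, with M above S in both libraries. Cenpc1, which ties Cenpa nucleosomes to the outer kinetochore, stood in M at 266.2 CPM against 104.6 CPM in S at P24-30, and at 351.5 against 155.3 CPM at P12. Cenpl was in M at 80.2 CPM against 33.0 CPM in S at P24-30, and at 136.7 against 83.8 CPM at P12. Its partner Cenpn, which reads the Cenpa nucleosome with it, had an M over S fold of 1.12 at P24-30 and 0.883 at P12, with 1 inside both intervals. Cenpt, a second link to the outer kinetochore, was higher in M than in S, 1.83-fold at P24-30 and 1.48-fold at P12. Cenpw, with which Cenpt pairs, had folds of 1.36 at P24-30 and 1.09 at P12, and the interval excluded 1 at P24-30 alone.

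**Figure D2:**
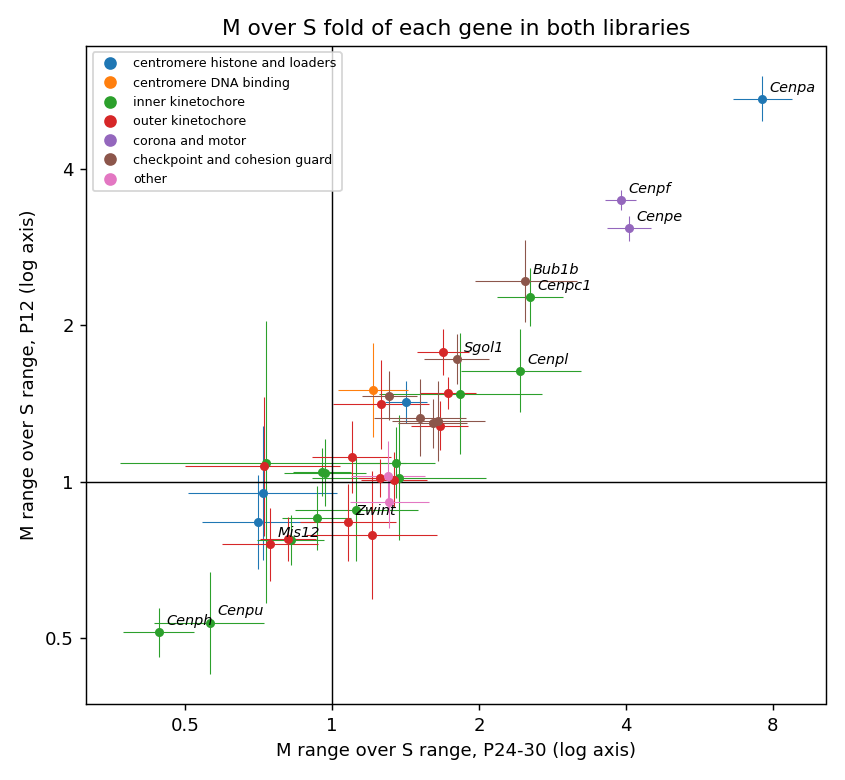
Fold of the M range over the S range for each of the 40 genes at P24-30 (x axis, log scale) and at P12 (y axis, log scale), with 95% counting intervals as bars and colours for the roles. Cenpa, Cenpf and Cenpe lie farthest to the upper right, and Cenph and Cenpu at the lower left.

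The Ndc80 complex differed more between the M and the low range than most of the 40 genes. Spc25, a subunit of the Ndc80 complex that holds the microtubule, had 12.0 CPM in the low range, 58.8 in G1/S, 328.7 in S, 378.6 in G2 and 411.3 in M at P24-30. At P12 it had 18.9, 102.5, 474.6, 535.8 and 482.9 CPM. Its M over low fold was 34.3 at P24-30 (25.9 to 46.3) and 25.5 at P12 (19.9 to 33.2). The other subunits of the same complex had M over low folds at P24-30 of 43.2 (Ndc80), 27.5 (Nuf2) and 15.1 (Spc24), and at P12 of 20.4 (Ndc80), 17.4 (Nuf2) and 8.32 (Spc24). Between S and M they parted. Nuf2 was higher in M (1.66-fold at P24-30, 1.28-fold at P12) and Spc24 was lower in M (0.814 at P24-30, 0.775 at P12). Ndc80 and Spc25 were higher in M at P24-30 (1.34-fold and 1.25-fold), and at P12 their folds of 1.01 and 1.02 had intervals that held 1.

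The Ska complex strengthens the grip of the Ndc80 complex on microtubules. Ska1 had the highest M over low fold of the 40 genes at P24-30, 49.2 (26.2 to 104), on a low-range level of 2.31 CPM, and 23.9 at P12 (15.4 to 39.2). Ska3 stood at 30.5 at P24-30 and 22.4 at P12, and Ska2, which kept 53.7 CPM in the low range at P24-30 and 86.1 CPM at P12, at 6.17 and 5.49. Knl1, the scaffold that the checkpoint proteins dock on, stood at 19.8 at P24-30 and 13.1 at P12. In the Mis12 complex, which joins the inner to the outer kinetochore, Mis12 itself was lower in M than in S in both libraries (0.747 at P24-30, 0.757 at P12). The M over S intervals of Dsn1 and Nsl1 held 1.

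Zwint, which binds Knl1, behaved unlike the rest of the outer kinetochore. It had 77.5 CPM in the low range, 78.7 in G1/S, 72.4 in S, 81.5 in G2 and 78.2 in M at P24-30, and 108.2, 125.8, 130.4, 116.7 and 109.1 CPM at P12. Its M over low fold was 1.01 in both libraries (0.828 to 1.22 at P24-30 and 0.858 to 1.18 at P12). The 3' end of Zwint shares over 200 bases at 95% identity or more with another annotated gene, Gm8099, so its reads may be split or joined with those of that gene. The same limit touches Cenpc1, Cenpp, Ndc80, Ska2 and Cenpe.

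Cenpe, a kinesin motor of the fibrous corona, and Cenpf, a large coiled-coil protein of the same layer, had a late pattern. Cenpe was at 57.4 CPM in the low range, 54.5 in G1/S, 208.7 in S, 577 in G2 and 847 in M at P24-30, and at 194.2, 171.4, 753, 1386 and 2315 CPM at P12. Cenpf was at 75.2, 101.7, 411.5, 948 and 1607 CPM at P24-30, and at 246.5, 287.4, 1109, 1987 and 3864 CPM at P12. For Cenpe, M was above S 4.06-fold at P24-30 and 3.07-fold at P12, and for Cenpf 3.91-fold and 3.48-fold. They stood next to Cenpa in the order of M over S folds.

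All 6 checkpoint and cohesion genes were higher in M than in S in both libraries. They are the kinases Bub1 and Ttk, Bub1b and Mad2l1, which are part of the inhibitor of the anaphase promoting complex, Bub3, which anchors Bub1 and Bub1b, and Sgol1, which shields centromeric cohesin. Bub1b had the highest M over S fold among them, 2.49 at P24-30 (1.96 to 3.17) and 2.43 at P12 (2.03 to 2.92), with levels of 111.9 CPM in M and 45.0 CPM in S at P24-30, and 187.1 CPM in M and 77.0 CPM in S at P12. The folds of the other 5 lay between 1.31 and 1.80 at P24-30 and between 1.29 and 1.72 at P12. Bub3 differed from these genes in its low-range level, 86.5 CPM at P24-30 and 103.9 CPM at P12, so that its M over low fold was 2.99 at P24-30 and 3.55 at P12. For the other 5 this fold was at least 13.0 at P24-30 and at least 7.11 at P12.

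A pair of Cenp genes have roles outside the core kinetochore. Cenpj, a protein of the centriole despite its symbol, had M over low folds of 3.63 at P24-30 and 2.84 at P12. Cenpv, which was described at the centromere and in microtubule bundling, was near level with M over low folds of 1.57 at P24-30 and 1.23 at P12.

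Over all 40 genes, 34 had the same pattern in both libraries. Of these, 17 were higher in M than in S, 5 were lower and 4 were level. For the other 8, counting error did not separate M from S in either library, which is not agreement in direction. The M over S fold was on the same side of 1 in both libraries for 32 of the 40. These counts of agreement were made for the 40 genes only. No share over all genes stands beside them, so they do not set the 40 genes apart from others. M was above S with an interval that excluded 1 for 23 genes at P24-30 (16.2% of all genes tested were) and 18 at P12 (12.2%). Leaving aside genes that were under 2-fold above the low range in both phases, these were 21 and 17 genes, and the 17 were among the 21. M was below S for 6 genes at P24-30 (12% of all genes) and 7 at P12 (16%), of which Cenph, Cenpk, Cenpu, Mis12 and Spc24 were below in both libraries and Zwint was a near-level gene. Cenpb, Cenpo, Zwint and Cenpv stayed under 2-fold above the low range in S and in M in both libraries, although Cenpo, with 122 UMIs at P24-30 and 127 at P12, reached 19.9 CPM in G2 at P12 against 7.75 CPM in the low range. In the promoter windows the CHR was found in 9 of the 17 genes higher in M at P12 (all with an entry), in none of the 5 lower in M that had an entry, in none of the 4 level ones and in 5 of the remaining 11. The CCAAT box was found in 12 of 17, 5 of 5, 1 of 4 and 6 of 11 of these groups.

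Other genes of the same machinery were counted for comparison, 23 in all, which are the chromosomal passenger complex, further checkpoint genes, Sgol2a, microtubule regulators and the remaining kinetochore subunits. At P24-30, 17 of the 21 with at least 100 UMIs were at least 2-fold higher in M than in the low range, and at P12 17 of 23. Kif2c, a microtubule depolymerase, had a fold of 47.0 at P24-30 and 31.4 at P12, and Cdc20, the activator the checkpoint inhibits, one of 35.1 and 19.4. Clasp1 and Clasp2, which act on microtubules between divisions as well, were at 0.749 and 0.798 at P24-30 and at 0.875 and 0.932 at P12.

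Each column of the P24-30 file is named with 1 of 16 tags (G1 to G16), which the labels leave unexplained. If they were drawn from the same expression values, differences between them follow from that choice, so they are given as a description. The summed level of the 40 genes was highest in tag G16, at 9322 CPM (9161 to 9484), followed by G1 at 7632 CPM, G2 at 4752 CPM and G3 at 2939 CPM. G16 had 84.9% of its cells in the M range and G1 39.9% in M and 31.4% in S, while G2 had 70.3% of its cells in S and G3 76.9% in G1/S. Tags G11 to G15 lay between 925 and 1062 CPM, with 71.1% to 93.3% of their cells in the low range. The lowest levels were 539 CPM in G8, where microglia markers summed to 26032 CPM, and 738 CPM in G9, where astrocyte and Bergmann glia markers summed to 11020 CPM and 11 cells were kept.

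**Figure D3:**
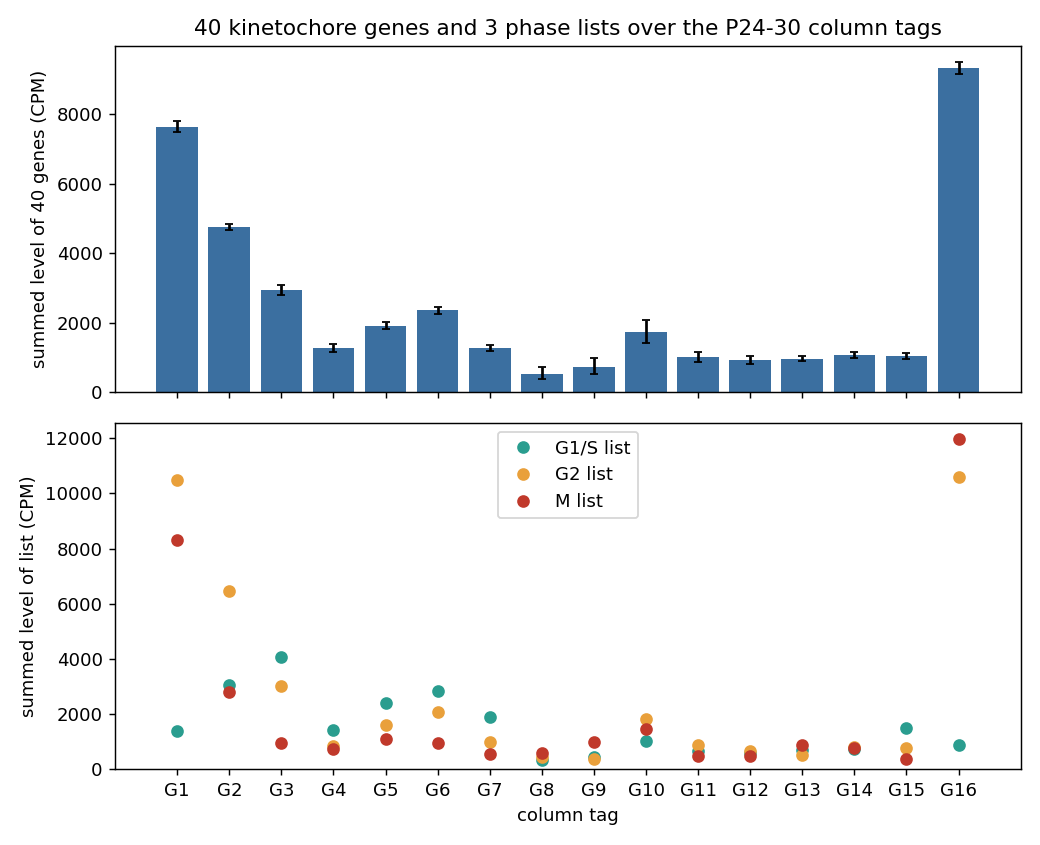
Summed level of the 40 genes (bars, CPM with 95% counting intervals) and of the G1/S, G2 and M phase lists (points, CPM) in the 16 column tags of the P24-30 library. The bars are tallest in G16, G1 and G2, with 9322, 7632 and 4752 CPM.

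G16 was set against the other tags together because its M list level, 11976 CPM, was the highest of the 16 tags. In G16, 23 of the 40 genes were at least 2-fold higher, where 2.52% of all 10826 genes were. The median of the 40 genes was 2.22-fold against 0.902-fold over all genes. Cenpa was at 932 CPM in G16, 405 in G1 and 97.6 in G2, and the highest of the other 13 tags was G6 with 133.5 CPM. Cenpf was at 1924 CPM in G16, 1032 in G1 and 384 in G2, and Cenpe at 959, 631 and 173.2 CPM. These 3 genes were higher in G16 than in G1 beyond counting error, as were Cenpc1, Ska2 and Sgol1.

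Most genes of the Ndc80 and Ska complexes were highest in G1, with Nuf2 and Ska2 highest in G16. Counting intervals of the highest and the next tag met for Nuf2, Spc24, Spc25 and Ska1, but not for Ndc80, Ska2 and Ska3. Ndc80 was at 219.2 CPM in G1, 164.4 in G16 and 132.3 in G2, and Spc25 at 518 CPM in G1, 444.3 in G16 and 266.1 in G2. Ska3 stood at 120.9 CPM in G1 and 84.4 CPM in G16. In all, 17 genes were highest in G16, 15 in G1, 4 in G2 and 4 in other tags. The 4 of G2 were Cenph (233.2 CPM), Cenpk (175.4 CPM), Cenpu (86.6 CPM) and Mis12 (85.2 CPM), which were also among the 5 genes lower in M than in S. Counting intervals of the highest and the next tag met for each of these 4, for Cenph with G3 at 223.3 CPM.

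In the tags with few cycling cells the level genes made up more of what remained. Cenpb, Cenpo, Zwint and Cenpv gave 4.03% of the UMIs of the 40 genes in G16 and 5.06% in G1, against 27.7% to 32.9% in G11 to G15. Summed over these 4 genes the level was between 294.8 and 318.7 CPM in G11 to G15 and 376 CPM in G16. The other 36 genes together stood at 630 to 768 CPM in G11 to G15 and at 8946 CPM in G16. Zwint was at 72.7 CPM in G16 and between 69.3 and 99.1 CPM in G11 to G15. Neuron-like markers were at 1943 CPM in G16 and 3800 to 7148 CPM in G11 to G15. They did not follow the order over all tags, with 1440 CPM in G1 and 199 CPM in G8. Within G11 to G15, choroid plexus markers summed to 15048 CPM in G13 and oligodendrocyte lineage markers to 2476 CPM in G14. The part of these markers in the result was not tested.

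Over the 16 tags the summed level of the 40 genes followed the G2 list most closely, with a Spearman rho of 0.968, against 0.729 for the G1/S list, 0.709 for the M list and 0.703 for the S list. These values share the cells and depth of 1 library and are a description. For Cenpb, Cenpo and Zwint rho with the G2 list lay between -0.244 and 0.0471, and for the other 37 genes it was at least 0.505. Cenpv, counted above with the level genes, was among these 37, with a rho of 0.897.

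Shares of cells with a UMI were compared on cells cut down at random to 500 UMIs each. Any of the 40 genes was then seen in 64.1% of P24-30 cells (62.7 to 65.4) and 77.8% of P12 cells (76.7 to 78.8), before thinning in 89.3% and 94.1%. The low range had 42.7% at P24-30 and 52.8% at P12, at median depths of 1835 and 1541 UMIs. Microglia-like cells served as a comparison, but they are not known to lack these transcripts, and tag G8 held 35 of the 54 at P24-30. They had median depths of 2284 UMIs at P24-30 and 2091 UMIs at P12. The share in them was 37.0% (20 of 54 cells, 24.3 to 51.3) and 42.5% (37 of 87 cells, 32.0 to 53.6). The low range lay inside those intervals at 500 UMIs but above them at 1000 UMIs, with 61.4% against 40.7% (27.6 to 55.0) at P24-30 and 75.3% against 63.1% (51.9 to 73.4) at P12. How much of the low-range signal is free RNA was not tested. The M range had 93.7% at P24-30 and 99.7% at P12. For Cenpf alone the share in M was 49.6% at P24-30 and 78.5% at P12, in the low range 3.25% and 8.38%, against 5.56% and 8.05% of the microglia-like cells.

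The ages were then set side by side over all kept cells. Summed over the 40 genes the level was 3792 CPM at P24-30 and 7245 CPM at P12. The median gene of 12112 with at least 50 UMIs was itself lower at P24-30, at 0.832 of its P12 level, a log2 shift of -0.27, and the ratios that follow are relative to it. On that scale the summed ratio was 0.629 (0.622 to 0.636), the median of the 40 genes was 0.744, and 35 of the 40 were below 1. The counting interval lay below 1 for 32 genes (30.2% of all genes) and above 1 for 2 (29.9% of all genes).

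**Figure D4:**
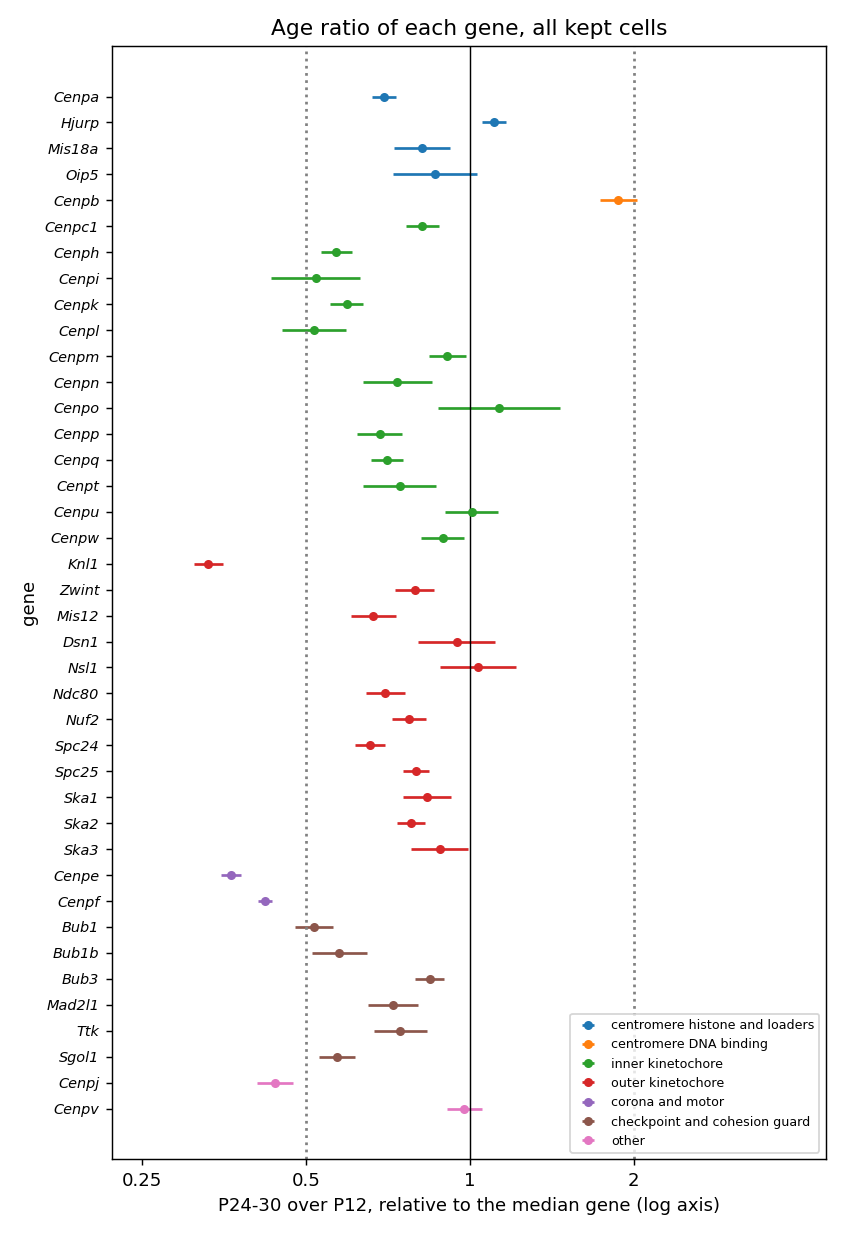
Ratio of P24-30 over P12 for each of the 40 genes over all kept cells, relative to the median gene (x axis, log scale), with 95% counting intervals as bars and dotted lines at a 2-fold difference. Knl1, Cenpe, Cenpf and Cenpj lie left of the lower line, and Cenpb lies nearest to the upper one at 1.87.

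Of the 40 genes, 4 were at least 2-fold lower at P24-30, where 3.57% of all genes were. Knl1 had 111.1 CPM at P24-30 and 403.8 CPM at P12, a ratio of 0.331 (0.311 to 0.351). Cenpe had 253.3 CPM at P24-30 and 836.4 CPM at P12 (0.364, 0.349 to 0.379), and Cenpf 459.9 CPM at P24-30 and 1316 CPM at P12 (0.420, 0.407 to 0.433). The scaffold and the corona proteins, all large proteins, had the lowest ratios, and the centriole gene Cenpj was the fourth with 74.7 CPM at P24-30 and 204.9 CPM at P12 (0.438, 0.406 to 0.473). Without division by the median gene 11 of the 40 were at least 2-fold lower. On that scale the median gene itself stood at 0.832, and the share of all genes at least 2-fold lower was not computed.

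None of the 40 genes was at least 2-fold higher at P24-30, where 12.1% of all genes were. Cenpb came closest, with 138.3 CPM at P24-30 and 88.7 CPM at P12, a ratio of 1.87 (1.73 to 2.03), and it was above 1 without that division too (1.56). Hjurp had 241.9 CPM at P24-30 and 262.3 CPM at P12, so that its ratio was 1.11 relative to the median gene, 0.922 without the division and 0.981 when scaled to UMIs without ribosomal protein and mitochondrial genes. Its partner Cenpa stood at 197.7 CPM at P24-30 and 342.1 CPM at P12 (0.695).

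Subunits of some complexes differed in their age ratio beyond counting error. Within the Ndc80 complex the ratios ran from 0.656 for Spc24 (0.615 to 0.698) to 0.796 for Spc25 (0.753 to 0.841). Within the Ska complex they ran from 0.778 for Ska2 (0.734 to 0.825) to 0.881 for Ska3 (0.780 to 0.994), and these intervals met. Cenph (0.568), Cenpi (0.521) and Cenpk (0.593) were low beside Cenpm (0.909), which acts with them. Cenpu (1.01) and Cenpo (1.13) had intervals that held 1, whereas Cenpp (0.683) and Cenpq (0.705) of the same complex did not. Among the checkpoint genes Bub1 (0.517), Sgol1 (0.570) and Bub1b (0.576) were lowest and Bub3 (0.844) was highest.

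By the phase scores, 13.2% of P24-30 cells and 16.6% of P12 cells were in the M range, and 43.6% and 35.5% in the low range. The ranges are set by each library's own mean and SD. These shares therefore cannot show whether cells of a phase were more or fewer at one age. The S list, mostly histone genes, summed to 15937 CPM at P24-30 and 3351 CPM at P12, so cells of one range may differ between ages. The G2 and M lists were lower at P24-30, as the 40 genes were. The G2 list summed to 4462 CPM at P24-30 and 8822 CPM at P12, and the M list to 3294 and 5950 CPM. The G1/S list was at 1963 and 2047 CPM. In the M range alone the M list was at 11265 CPM at P24-30 and 16823 CPM at P12. How far the age ratios of the 40 genes go with these lists was not tested. Within ranges, over the genes that reached 50 UMIs there, the median ratio, relative to the median gene of that range, was 0.740 in the low range, 0.791 in G1/S, 0.820 in S, 0.870 in G2 and 0.869 in M. At least 2-fold lower were 11 of 33 genes in the low range (3.98% of all genes), 7 of 40 in G1/S (3.56%), 4 of 39 in S (3.86%), 2 of 39 in G2 (3.16%) and 2 of 39 in M (3.35%). Knl1 was lower in each range, at 0.272, 0.312, 0.382, 0.409 and 0.422 in that order. Cenpb was above 1 in each, at 1.81, 1.87, 2.38, 2.59 and 1.82.

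Among the 23 other genes of the machinery, 3 were at least 2-fold lower at P24-30 and none at least 2-fold higher, with a median ratio of 0.733. They were Kif18a (0.432), a kinesin that damps chromosome movement, Sgol2a (0.438), a relative of Sgol1, and Spdl1 (0.460), which brings dynein to the kinetochore. Pmf1, the remaining subunit of the Mis12 complex, had a ratio of 1.15 and Cdc20 one of 0.638.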

How the data were processed

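Drop-seq data of 2 libraries were used, 1 per age, grouped by the labelled age. For P12 the deposited file gives counts, all whole numbers, for genes and barcodes of 12 bases, which were taken as UMIs (6000 barcodes, 12265399 counts); the labels do not say whether they were collapsed by molecular barcode. For P24-30 the authors deposited natural log values of 1 plus the UMIs of a gene in a cell scaled to 10000 per cell. All 6195642 values above 0 gave whole UMIs within 0.001 (100%), 12256463 in all. The cell totals used for scaling summed to 12284458 UMIs, of which 0.228% belong to genes that are not listed. The submitters' processing notes name CASAVA and mm10. Aligner and counter: not given in the sources used here.

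Kept cells had 500 or more UMIs, of which mitochondrial genes took at most 20%. This left out 146 P24-30 cells and 9 P12 barcodes for few UMIs, and 49 and 268 for mitochondrial UMIs. No doublet caller was run, and an alternative leaves out the 5% of cells with most UMIs. The P24-30 columns carry no barcodes, so barcodes shared between the libraries could not be counted. Genes were joined by symbol (16055) and by older symbols in the RefSeq synonyms (488).

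UMIs were summed over cells and scaled to CPM, with exact Poisson intervals, exact conditional intervals for ratios and Clopper-Pearson intervals for shares. "Called" means at least 2-fold. Genes needed 50 UMIs over both libraries for ages, 100 in a library for ranges and 50 in the tagged library for tags. Phase scores were z values of the square root of a list's share of UMIs. The calculations were tested on simulated data. Python 3.11.15, numpy 2.4.6, scipy 1.17.1, pandas 2.3.3, matplotlib 3.10.9 and BLAST 2.17.0 (shared 3' ends, 500 bases) were used, with positions from GENCODE. All 40 genes of the naming rule were described, and promoters were printed for the 3 highest M over low and the 3 highest G1/S over M folds at P12 among genes with an entry outside chromosome 18. The genes and lists were chosen with earlier results of these data known. Alternatives changed the cell filter, scaling, gene minimum, phase threshold, phase lists and thinning.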

Additional observations from a re-analysis of the deposited data

How the results depend on the processing

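Of the values that answer a comparison, 61 of 73 values under an alternative stayed within the spread or count range set for them. Most of these values are counts or shares, for which no reversal was defined. Only the summed age ratio could reverse, and it did not. The other 12 of the 73 values were as follows. Without division by the median gene 11 genes were at least 2-fold lower at P24-30 and the summed ratio was 0.523. Scaling to UMIs without ribosomal protein and mitochondrial genes gave 7 genes and 0.556. For neither count of genes was the share over all genes on the same scale computed. The summed ratio was 0.637 without cells of glial, immune or vascular types, 0.643 without the 5% of cells with most UMIs, 0.610 with a minimum of 20 UMIs per gene and 0.639 with a minimum of 100. The share of cells with a UMI of any of the 40 genes was 89.3% at P24-30 and 94.1% at P12 without thinning, and 79.7% and 89.4% at 1000 UMIs. With the phase threshold at 1 SD, 33 of the 40 M over low folds at P12 moved beyond their counting interval, while the counts of genes higher (17) and lower (6) in M than in S were the same. With the odd-numbered genes of each phase list 7 of the 40 M over S folds at P12 moved beyond their counting interval and the counts were 17 and 7, and with the even-numbered genes 4 moved and the counts were 20 and 6. Taking the mean over cells of each cell's share moved 16 of the 40 folds of G16 over the other tags, and 24 genes were at least 2-fold higher. An alternative chosen after seeing the data left out the 6 genes whose 3' end is shared, which left 3 genes at least 2-fold lower at P24-30 and 31 at least 2-fold higher in M than in the low range at P12. No paired analysis was possible because each age has 1 library. Depth limits the genes with few UMIs, such as Cenpo and Cenpi, most.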

Other observations

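The age ratios were also set beside the length of each gene's longest transcript. The 4 genes with a longest transcript of at least 7000 bases, Knl1, Cenpe, Cenpf and Mad2l1, had a median P24-30 over P12 ratio of 0.392, against 0.894 for all 1188 genes of that length. For 8 genes of 4000 to 7000 bases the median was 0.963, against 0.951 for all 3457 such genes. For 21 genes of 2000 to 4000 bases it was 0.743, against 1.01 for all 4623, and for 7 genes under 2000 bases 0.796, against 1.10 for all 2624. Mad2l1 itself, with 7557 bases, had a ratio of 0.722, near the median of the 40 genes. Spearman's rho of ratio with length was -0.189 across the 40 genes and -0.219 across 11892 genes, which are not independent of each other.

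Phase placement left some cells between lists. At P12, 123 of the 494 G2-range cells had their 2 highest scores within 0.1 SD of each other, and 83 of the 949 M-range cells. At P24-30 the numbers were 69 of 322 G2-range cells and 60 of 633 M-range cells.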
